A study of Drosophila melanogaster with 8 samples.

Results

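Antisense RNAs are transcribed from the strand opposite to another gene. The 112 antisense RNAs described here are the fly genes annotated as asRNA that had a mean of at least 5 TPM (transcript abundance corrected for length and library size) over 8 RNA-seq libraries of sorted brain cells. They are 112 of the 485 asRNA genes and of the 17137 reference genes in the tables. They were chosen by that mean level alone, and 1 further gene past the limit, asRNA:CR45009, was left out beforehand. An antisense RNA that is high in only some of the groups can reach that mean. The choice is therefore not independent of the differences between groups described below. The libraries came from adult central brains of males and females aged 2 to 7 days, with the optic lobes removed. All flies were of the w1118 strain and carried UAS-mCD8-GFP, MB247-Gal80 and Fru-GAL4. The 4 groups were male fru+ cells, female fru+ cells, male fru- cells and female fru- cells, with 2 replicates each. The fru+ cells were sorted by the GFP that Fru-GAL4 drives, and the fru- cells were GFP-negative cells of the same brains. MB247-Gal80 silences the reporter in γ Kenyon cells, so that these fru-expressing cells of the mushroom body lie in the fru- pool.

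An antisense RNA can share exons with the gene on the other strand, start at its promoter, run across its end or lie within one of its introns. Some antisense RNAs are known to change the transcription, the splicing or the stability of the gene they face, and others may be by-products of an open promoter. For most of the fly genes named here no role has been assigned. The opposite-strand gene is called the host below, whatever the arrangement, and the prefix asRNA: is left out after the first use of a name.

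Each of the 112 antisense RNAs overlapped at least 1 gene on the opposite strand, and 133 different host genes were found in 134 pairs. There were 92 antisense RNAs with 1 host and 20 with 2 or more, and 130 of the 133 hosts code for protein. In 45 pairs the antisense RNA ran over the start of its host, in 28 over its end, and in 14 it enclosed the host. In the other 47 it lay within the span of the host, 46 of them with a shared exon. By the Ensembl annotation 56 antisense RNAs are a single block of exon and 56 are spliced, with a median exonic length of 1038 bases and a range of 295 to 7622. All 112 had exonic bases inside exons of the opposite strand, and the median share was 66.2%. The largest overlap was with host coding sequence for 82 of them, with a 5′ untranslated region for 25 and with a 3′ untranslated region for 5. The library kit did not record strand. Reads from exons shared by both strands therefore cannot be told apart, and their division between the antisense RNA and its host rests on the authors' assembly program.

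The libraries held 3.14 to 4.89 Gb of aligned sequence, as estimated from coverage divided by FPKM. The tables contain no read counts, so no counting interval or smallest detectable level can be given. All 5 neuronal markers were present in each library. fru was at 56.2 to 71.6 TPM in the fru+ libraries and at 3.74 to 15.1 TPM in the fru- libraries, where female fru- replicate 2 was the highest. That library also had the lowest summed level of the 6 glial markers among fru- libraries, 931.9 TPM, and the other 3 had 1661 to 2365 TPM. In fru+ libraries the glial sum was 499 to 816 TPM, and all 6 glial markers had a lower mean there. The 7 Kenyon cell markers also all had a lower mean in fru+ cells, with sums of 878 to 1361 TPM in fru+ libraries and 1298 to 1552 TPM in fru- libraries. In RNA from pooled cells, fewer cells of a type and less RNA per cell cannot be told apart.

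The antisense RNAs were mostly rare transcripts. Their mean levels had a median of 9.85 TPM and quartiles of 6.57 and 21.6 TPM, and 53 of the 112 reached 10 TPM. Together they made up 1678 to 1899 TPM in fru+ libraries and 1823 to 2039 TPM in fru- libraries. All 112 were tested, since each reached 1 TPM in 2 or more libraries. Levels of at least 1 TPM were found in all 8 libraries for 106 of them. Among the 108 that were above 0 everywhere, the highest library exceeded the lowest by a median of 2.43 times. In 27 of these the difference was under 2 times, and in 6 it was over 10 times. TPM is corrected for length. The levels of an antisense RNA and its host still depend on how the assembly program divided the reads of shared exons. The strongest host was above its antisense RNA in 88 cases and below it in 24, and the median ratio of host to antisense RNA was 4.57. The even and the uneven antisense RNAs can be seen in the plot of levels by rank.

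**Figure D1:**
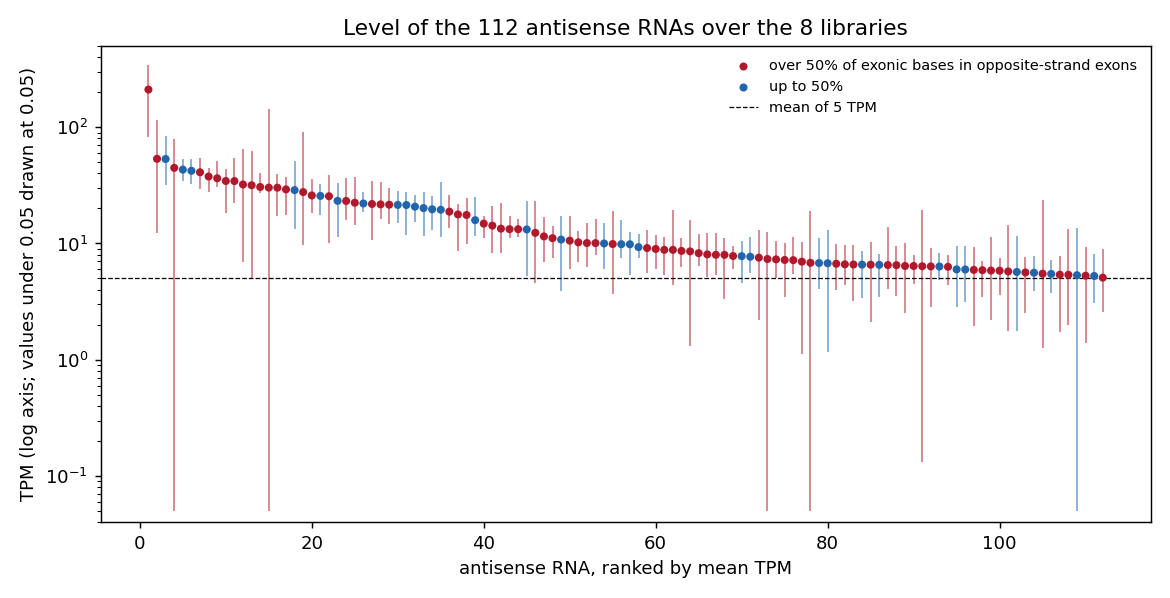
Mean TPM of each of the 112 antisense RNAs (points, log axis), ranked from highest to lowest, with the range over the 8 libraries (lines). Red marks those with more than 50% of their exonic bases in opposite-strand exons. The highest mean was 210.7 TPM, and the few lines that reach the bottom belong to antisense RNAs listed at or near 0 in at least 1 library.

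The most abundant antisense RNA was asRNA:CR45275, a single exon at 17585692 to 17586243 on the plus strand of chromosome 2R. It lies within CG14483, and 83.0% of it is shared with that gene's exons. CR45275 had 254 and 319 TPM in male fru+ libraries, 199 and 344 TPM in female fru+ libraries, 109 and 205 TPM in male fru- libraries, and 173 and 81.6 TPM in female fru- libraries. The fru+ and fru- values overlapped, and its host was at 146 to 213 TPM. CR45275 was above CG14483 in all 4 fru+ libraries and below it in 3 of 4 fru- libraries. Next were asRNA:CR44843 over the neuropeptide gene Lk, described below, and asRNA:CR43959. CR43959 lies inside Hyperkinetic (Hk), which codes for a β subunit of a potassium channel, on chromosome X from 10256629 to 10261804. It had 49.6 and 39.3 TPM in male fru+ libraries, 72.7 and 31.5 TPM in female fru+ libraries, 55.5 and 57.0 TPM in male fru- libraries, and 36.2 and 84.3 TPM in female fru- libraries. Its 2 replicates differed by more than 2 times in both female groups, and Hk, at 71.5 to 191 TPM, was lower than in the other replicate in the same 2 libraries as CR43959. Only 11.0% of the exonic bases of CR43959 are shared with Hk, all in the 5′ untranslated region.

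The rest of the 8 most abundant were steadier, except asRNA:CR44134. asRNA:CR42254 runs over the start of BEAF-32, which codes for an insulator protein, and was at 34.5 and 46.8 TPM in male fru+ libraries, 53.5 and 39.7 TPM in female fru+ libraries, 43.4 and 36.3 TPM in male fru- libraries, and 47.2 and 43.9 TPM in female fru- libraries. asRNA:CR44030 overlaps the end of fuss, a transcriptional regulator of the Ski/Sno family, on chromosome 4. It had 32.3 and 34.3 TPM in male fru+ libraries, 35.8 and 49.0 TPM in female fru+ libraries, 37.9 and 41.9 TPM in male fru- libraries, and 52.4 and 53.6 TPM in female fru- libraries, above fuss itself in each library. asRNA:CR45469, at the start of the lipid kinase gene PIP5K59B, was at 29.3 and 45.1 TPM in male fru+ libraries, 41.3 and 44.7 TPM in female fru+ libraries, 39.9 and 34.5 TPM in male fru- libraries, and 38.9 and 53.9 TPM in female fru- libraries. The fru+ and fru- libraries overlapped within each sex for CR42254 and CR45469. For CR44030 they did not overlap within either sex, with fru+ lower, and overlapped when the sexes were pooled. asRNA:CR45789, at the end of daughterless (da), which codes for a helix-loop-helix transcription factor, had 33.4 and 40.4 TPM in male fru+ libraries, 34.7 and 38.9 TPM in female fru+ libraries, 44.4 and 41.4 TPM in male fru- libraries, and 27.8 and 40.2 TPM in female fru- libraries. In CR45789 the shared bases, 63.7% of the exon, all fall in the 3′ untranslated region of da. CR44134 has all its bases in exons of CG9804 and was listed at 0 in male fru+ replicate 1. Its other library of that group had 65.5 TPM, the female fru+ cells had 56.3 and 25.1 TPM, the male fru- cells 58.1 and 79.5 TPM, and the female fru- cells 31.4 and 41.6 TPM. CG9804 itself had 77.9 TPM in the library in which CR44134 was listed at 0, and 54.6 to 80.4 TPM over all 8.

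At the limit of 5 TPM the choice separated genes of nearly the same level. Just inside were asRNA:CR44892, within silver (svr), and asRNA:CR44690, with means of 5.25 and 5.08 TPM. Just outside were asRNA:CR30267 and asRNA:CR45683, each with a mean of 4.85 TPM. CR44892 had 6.70 and 3.53 TPM in male fru+ libraries, 8.16 and 6.93 TPM in female fru+ libraries, 4.92 and 4.85 TPM in male fru- libraries, and 3.86 and 3.07 TPM in female fru- libraries. CR30267 had 6.11 and 2.70 TPM in male fru+ libraries, 5.26 and 1.57 TPM in female fru+ libraries, 7.93 and 6.44 TPM in male fru- libraries, and 3.81 and 4.95 TPM in female fru- libraries. CR45683 had 2.28 and 4.46 TPM in male fru+ libraries, 4.59 and 3.30 TPM in female fru+ libraries, 6.44 and 5.71 TPM in male fru- libraries, and 4.90 and 7.10 TPM in female fru- libraries. The libraries thus lay on both sides of the limit in all of these genes.

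To ask which antisense RNAs follow fru status, the 4 groups were compared in 1 fit across all 10111 tested genes with limma on log2(TPM + 1). Folds on this scale understate the change of low genes. Averaged over the sexes, 9 of the 112 antisense RNAs passed an adjusted p of 0.05 between fru+ and fru- cells, 3 of them higher and 6 lower in fru+ cells. This is 8.04%, and 5.29% of all tested genes passed. The tested genes include those with means below 5 TPM, so this share and those below are not matched in level. The limit of 5 TPM also admits antisense RNAs that are high in only 1 pool. These shares, and the contrast with the lower asRNA genes below, are thus not independent of the choice. The median log2 fold change of the 112 was -0.15, and that of all tested genes was -0.12. With median-of-ratios scaling, which brings the median of all genes to near 0, 3 antisense RNAs were higher and 3 lower. The split over all genes then turned to 259 higher and 221 lower, against 151 higher and 384 lower without that scaling. An unadjusted p under 0.05 was found for 20 of the 112 (17.9%) and for 23.5% of all tested genes. By the cruder measure of no overlap between the 4 fru+ and the 4 fru- libraries, 13 of the 112 (11.6%) differed, and 15.5% of all tested genes did. Of the 156 other asRNA genes tested, which have lower levels, 0 passed in the limma fit with 17 at an unadjusted p under 0.05, and 1 passed in a fit with the replicate number, which marks the sorting session, as an added term (the replicate block). Of 526 tested lncRNA genes, 18 passed (3.42%), 9 in each direction.

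**Figure D2:**
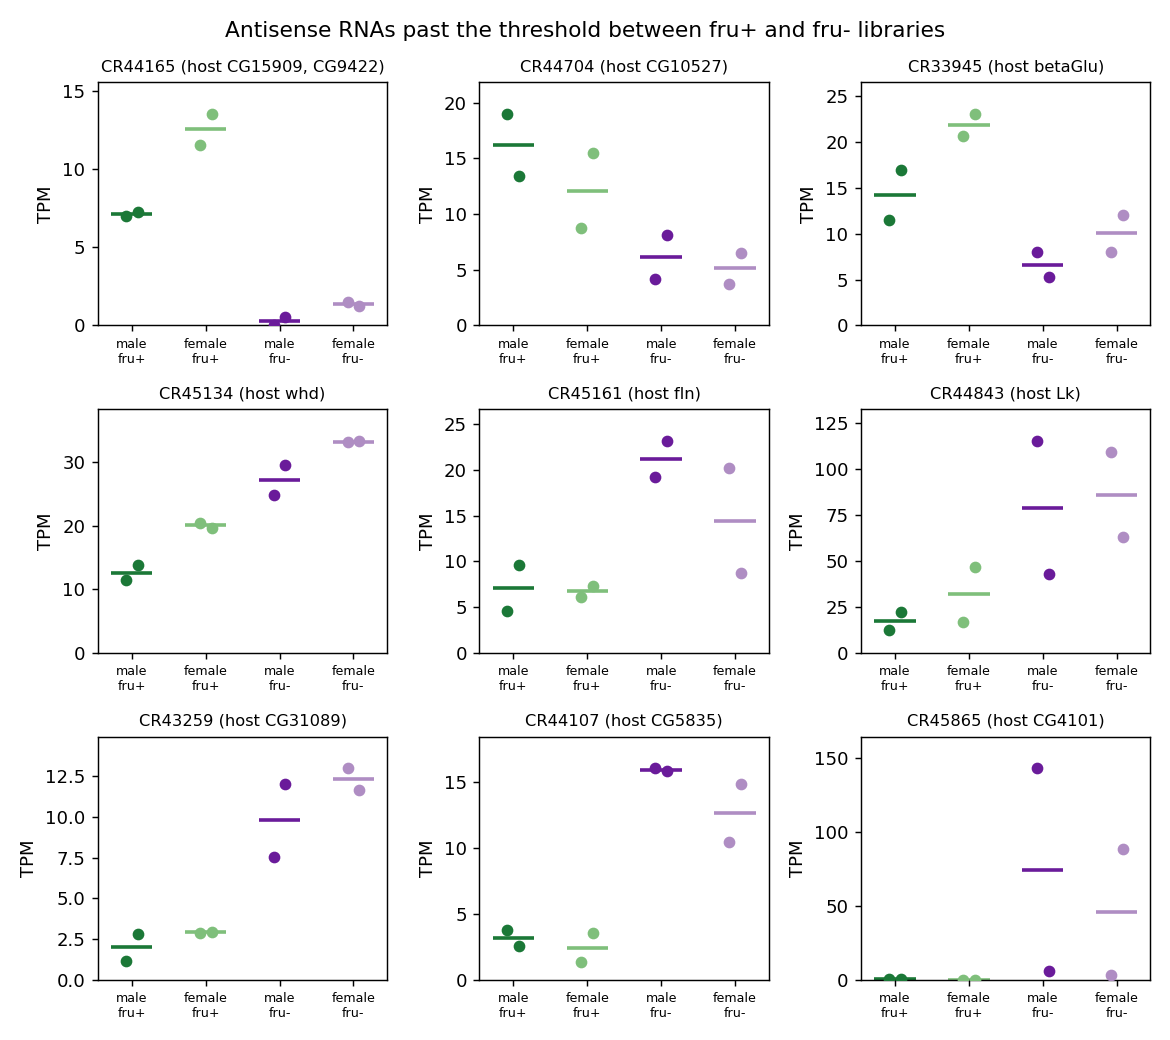
TPM of the 9 antisense RNAs past the threshold between fru+ and fru- cells, by group (points, 1 for each library, with a bar at the mean of 2). CR44165, CR44704 and CR33945 are higher in fru+ cells and the other 6 are lower, and CR45865 is high in only 1 of the 2 libraries of each fru- group.

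asRNA:CR44165 differed most clearly, and was the only one to pass within each sex. It is a single exon of 1229 bases at 6682521 to 6683749 of chromosome 2R, minus strand. It runs over the start of CG15909, with 41.0% of its bases in exons of that gene, and at the same time lies in an intron of the longer gene CG9422. CR44165 had 7.01 and 7.25 TPM in male fru+ libraries and 11.6 and 13.5 TPM in female fru+ libraries, against 0.0113 and 0.559 TPM in male fru- libraries and 1.49 and 1.25 TPM in female fru- libraries. The fru+ and fru- libraries did not overlap, and the female libraries were higher than the male ones of the same fru status. Its mean was 9.84 TPM over the fru+ and 0.827 TPM over the fru- libraries. CR44165 therefore reached the limit of 5 TPM only through the fru+ libraries. The log2 fold change of fru+ over fru- cells was 2.60 averaged over the sexes (SE 0.25, limma adjusted p = 0.000769), or 6.08-fold. It was 2.69 in males (SE 0.36, limma adjusted p = 0.0132), where 1 of 112 antisense RNAs and 0.514% of all genes passed. In females it was 2.51 (SE 0.36, limma adjusted p = 0.0151), where 1 of 112 and 0.653% of all genes passed. The averaged call held without any 1 library. Within males it was lost without male fru+ replicate 1 or 2 or male fru- replicate 1, and within females without female fru+ replicate 1 or 2 or female fru- replicate 1, with adjusted p up to 0.13 and 0.163.

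The 2 hosts of CR44165 went in opposite directions. CG15909, which shares exons with it, had 3.66 and 3.75 TPM in male fru+ libraries and 5.66 and 6.77 TPM in female fru+ libraries, against 2.32 and 0.949 TPM in male fru- libraries and 1.10 and 1.21 TPM in female fru- libraries. It was higher in fru+ cells by a log2 fold change of 1.31 (SE 0.27, limma adjusted p = 0.0270). CG9422, in whose intron CR44165 lies, had 34.9 and 34.5 TPM in male fru+ libraries and 39.5 and 37.8 TPM in female fru+ libraries, against 47.1 and 55.7 TPM in male fru- libraries and 65.6 TPM in both female fru- libraries. It was lower in fru+ cells by a log2 fold change of -0.65 (SE 0.13, limma adjusted p = 0.0276). CR44165 was thus the higher of the pair with CG15909 in each fru+ library, and CG9422 was above both throughout. The call of CG15909 held without female fru+ replicate 1, male fru- replicate 1 or female fru- replicate 2 and was lost without each of the other 5 (adjusted p up to 0.104). That of CG9422 held only without female fru+ replicate 1 (up to 0.113).

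asRNA:CR44704 and asRNA:CR33945 were the others higher in fru+ cells. CR44704 is a single exon of 1147 bases within CG10527, a putative farnesoic acid O-methyltransferase, and 62.2% of it is antisense to coding sequence. It had 19.0 and 13.4 TPM in male fru+ libraries and 8.74 and 15.4 TPM in female fru+ libraries, against 4.14 and 8.10 TPM in male fru- libraries and 3.70 and 6.55 TPM in female fru- libraries. The lowest fru+ library was just above the highest fru- library, and the log2 fold change was 1.20 (SE 0.29, limma adjusted p = 0.0470). CG10527 was far more abundant and rose with it, at 570 and 601 TPM in male fru+ libraries and 415 and 605 TPM in female fru+ libraries, against 182 and 241 TPM in male fru- libraries and 151 and 213 TPM in female fru- libraries. Its log2 fold change was 1.48 averaged over the sexes (SE 0.17, limma adjusted p = 0.00162), and it was the only host to pass within males (adjusted p = 0.0280) and within females (0.0252). The call of CR44704 held only without female fru+ replicate 1 or female fru- replicate 2 and was lost without any of the other 6 libraries (adjusted p up to 0.178). That of CG10527 averaged over the sexes held without any 1 library. Its call within males was lost without any 1 of the 4 male libraries (up to 0.213), and within females without male fru+ replicate 1 or 2, female fru+ replicate 2 or female fru- replicate 1 (up to 0.214) and in a fit to the 4 female libraries alone (0.234).

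CR33945 is a spliced RNA at 31767973 to 31769423 on the plus strand of chromosome 3R, and it meets the end of betaGlu, a beta-glucuronidase gene. Only 9.40% of its exonic bases are shared, all in the 3′ untranslated region of betaGlu. CR33945 had 11.5 and 17.0 TPM in male fru+ libraries and 20.7 and 23.1 TPM in female fru+ libraries, against 7.97 and 5.30 TPM in male fru- libraries and 8.04 and 12.0 TPM in female fru- libraries. Male fru+ replicate 1 lay below female fru- replicate 2, and within each sex the groups did not overlap, with a log2 fold change of 1.03 (SE 0.23, limma adjusted p = 0.0348). betaGlu had a log2 fold change of 0.23 and did not pass (limma adjusted p = 0.434). The call of CR33945 held without female fru- replicate 2 and was lost without any other library (adjusted p up to 0.129).

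Of the 6 antisense RNAs lower in fru+ cells, asRNA:CR44107 and asRNA:CR43259 kept the call without any 1 library. CR44107 is a spliced RNA of 380 exonic bases within CG5835 on chromosome 3R, and 94.2% of it is antisense to coding sequence. It had 3.80 and 2.55 TPM in male fru+ libraries and 1.32 and 3.57 TPM in female fru+ libraries, against 16.0 and 15.8 TPM in male fru- libraries and 10.5 and 14.8 TPM in female fru- libraries. The groups lay far apart, with a log2 fold change of -2.04 (SE 0.28, limma adjusted p = 0.00442). CG5835 was the lower of the pair in each library and moved the same way. It had 0.891 and 0.971 TPM in male fru+ libraries and 1.09 and 0.423 TPM in female fru+ libraries, against 6.24 and 4.53 TPM in male fru- libraries and 7.76 and 4.10 TPM in female fru- libraries. Its log2 fold change was -1.83 (SE 0.29, limma adjusted p = 0.00884).

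CR43259 is a spliced RNA of 5 exons at 25902846 to 25906766 of chromosome 3R, minus strand, over the end of CG31089. It shares 18.4% of its exonic bases with that gene. CR43259 had 1.18 and 2.80 TPM in male fru+ libraries and 2.87 and 2.97 TPM in female fru+ libraries, against 7.56 and 12.0 TPM in male fru- libraries and 13.0 and 11.6 TPM in female fru- libraries. The groups did not overlap, and the log2 fold change was -1.82 (SE 0.27, limma adjusted p = 0.00629). CG31089 was too low to be tested, with 0 and 0.0244 TPM in male fru+ libraries and 0 and 0.559 TPM in female fru+ libraries, against 0.828 and 2.34 TPM in male fru- libraries and 0.600 and 0.0278 TPM in female fru- libraries. In this pair the antisense RNA was therefore the main transcript. The call of CR43259 and that of CR44107 were lost only when no limit on low values was set (limma adjusted p = 0.0652 and 0.0647). The glial marker sums given above were also lower in each fru+ library than in any fru- library. The Kenyon cell sums overlapped, at 878 to 1361 TPM in fru+ and 1298 to 1552 TPM in fru- libraries, though all 7 markers had a lower mean in fru+ cells. The part of either cell type in the 6 lower antisense RNAs was not tested.

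asRNA:CR44843 overlaps Lk, which codes for leucokinin, a neuropeptide of a few brain and nerve cord neurons that regulates water balance, feeding and sleep. It spans 14560000 to 14560953 on the plus strand of chromosome 3L, encloses the whole of Lk, and has 67.7% of its exonic bases in Lk exons. CR44843 had 12.2 and 22.1 TPM in male fru+ libraries and 16.7 and 46.9 TPM in female fru+ libraries, against 115 and 42.7 TPM in male fru- libraries and 109 and 62.7 TPM in female fru- libraries. Female fru+ replicate 2 was above male fru- replicate 2, so that the groups overlapped. The log2 fold change was -1.78 (SE 0.39, limma adjusted p = 0.0336), or 0.0563 with the replicate block. Lk had 13.0 and 26.1 TPM in male fru+ libraries and 20.4 and 22.7 TPM in female fru+ libraries, against 330 and 76.5 TPM in male fru- libraries and 270 and 129 TPM in female fru- libraries. The 4 libraries of Lk in fru- cells keep the order of those of CR44843, with replicate 1 high in both sexes. The log2 fold change of Lk was -3.05 (SE 0.42, limma adjusted p = 0.00474), with no overlap, and it passed without any 1 library. The call of CR44843 held without female fru+ replicate 2, male fru- replicate 2 or female fru- replicate 2 and was lost without each of the other 5 (adjusted p up to 0.123). In fru+ cells CR44843 was below Lk in 3 of 4 libraries and above it in female fru+ replicate 2, and in each fru- library Lk was the higher.

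asRNA:CR45134 runs over the start of withered (whd), which codes for carnitine palmitoyltransferase, the enzyme by which fatty acids enter mitochondria. It lies at 10478043 to 10478795 on the plus strand of chromosome 2R, and 27.0% of its exonic bases fall in the 5′ untranslated region of whd. CR45134 had 11.4 and 13.8 TPM in male fru+ libraries and 20.5 and 19.6 TPM in female fru+ libraries, against 24.8 and 29.5 TPM in male fru- libraries and 33.2 and 33.3 TPM in female fru- libraries. Replicates were close, the groups did not overlap, and the log2 fold change was -0.88 (SE 0.16, limma adjusted p = 0.0197). whd had 7.57 and 6.59 TPM in male fru+ libraries and 8.94 and 8.81 TPM in female fru+ libraries, against 16.8 and 14.6 TPM in male fru- libraries and 23.0 and 12.0 TPM in female fru- libraries. Its log2 fold change was -0.94 (SE 0.23, limma adjusted p = 0.0488). The call of CR45134 held without female fru+ replicate 1 or either female fru- library and was lost without any of the other 5 (adjusted p up to 0.0901). That of whd held only without female fru- replicate 2 (up to 0.135), and was also lost with median-of-ratios scaling.

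asRNA:CR45161 and asRNA:CR45865 passed with wider spread. CR45161 lies within flightin (fln), a gene known for a thick filament protein of flight muscle, and shares 77.5% of its bases with it. It had 4.58 and 9.54 TPM in male fru+ libraries and 6.09 and 7.29 TPM in female fru+ libraries, against 19.2 and 23.1 TPM in male fru- libraries and 20.2 and 8.68 TPM in female fru- libraries. Female fru- replicate 2 fell among the fru+ values, and the log2 fold change was -1.21 (SE 0.30, limma adjusted p = 0.0488, or 0.0657 with the replicate block). fln, at 1.37 to 9.15 TPM, had a log2 fold change of -1.02 and did not pass (limma adjusted p = 0.0923). The call of CR45161 held only without female fru- replicate 2, with an adjusted p of 0.0116, and reached 0.177 without another library.

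CR45865 is a single exon of 328 bases, all of it inside exons of CG4101. It had 0.629 and 0.785 TPM in male fru+ libraries and was listed at 0 in both female fru+ libraries, against 143 and 5.98 TPM in male fru- libraries and 3.44 and 88.3 TPM in female fru- libraries. Each fru- group thus held 1 high and 1 low library, from different replicate numbers, and the log2 fold change was -4.26 (SE 1.01, limma adjusted p = 0.0413, or 0.0686 with the replicate block). CG4101 was even, at 189 to 229 TPM in fru+ cells and 215 to 253 TPM in fru- cells, with a log2 fold change of -0.14 (limma adjusted p = 0.493). The call of CR45865 held only without male fru- replicate 2 or female fru- replicate 1, the 2 low fru- libraries, and reached 0.126 without another library. With the replicate block 7 antisense RNAs passed in place of 9. CR44843, CR45161 and CR45865 were lost and asRNA:CR43730 was gained.

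The members of a pair share libraries and the reads of shared exons, so that they are not independent. Among the 125 pairs with a tested host, antisense RNA and host had the same sign between fru+ and fru- cells in 81 (64.8%). Over all 2275 opposite-strand pairs of tested genes the share was 56.1%. Within each sex the shares lay closer, at 60% against 57.6% in males and 59.2% against 56% in females. The comparisons of males with females gave like shares, at 65.6% against 56.75% in fru+ cells and 59.2% against 56.09% in fru- cells. Averaged over fru status they were 65.6% against 55.47%. The 2275 pairs were not matched for shared exons, which 124 of the 125 pairs have. Of the 9 antisense RNAs that passed, 5 had a host that passed in the same direction, namely CG15909, CG10527, CG5835, Lk and whd. In 3 others the host was tested and did not pass, and CG31089 was not tested. In all, 9 of 124 tested hosts passed (7.26%), 2 higher and 7 lower in fru+ cells. Of the 133 hosts, the further ones to pass were Adk2, an adenylate kinase gene, CG2017 and Tailor, a terminal uridylyltransferase gene, with log2 fold changes of -0.56, -0.56 and -0.60 (limma adjusted p = 0.0330, 0.0462 and 0.0379). Their antisense RNAs did not pass. With median-of-ratios scaling the calls of whd, Adk2, CG2017 and Tailor, all lower in fru+ cells, were lost. Leaving out any 1 library lost the call of CG2017 (adjusted p of 0.0584 to 0.183). Those of Adk2 and Tailor held in only 2 of 8 such fits each, without female fru+ replicate 2 or female fru- replicate 2 for Adk2 and without female fru+ replicate 1 or female fru- replicate 2 for Tailor (up to 0.116 and 0.133).

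**Figure D3:**
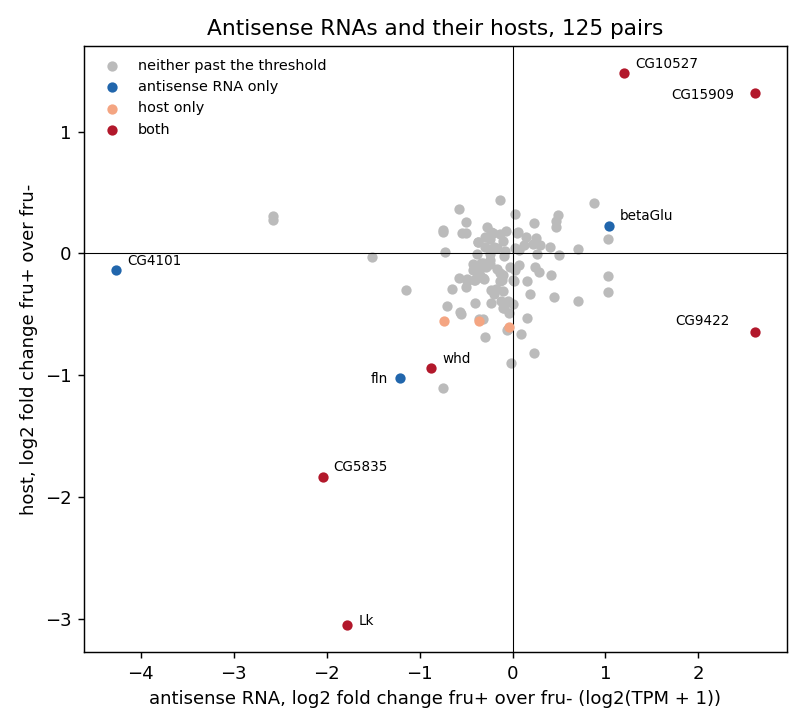
Log2 fold change of each antisense RNA (horizontal) and its host (vertical) between fru+ and fru- cells averaged over the sexes, on log2(TPM + 1), for 125 pairs with a tested host. Hosts of antisense RNAs past the threshold are named. CG10527 and CG15909 lie at the upper right, Lk, CG5835 and whd at the lower left, and CG9422 at the lower right.

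The comparisons within males and within females share no library. The same direction was found in both for 71 of 112 antisense RNAs (63.4%), 22 higher and 49 lower in fru+ cells, and for 70.5% of all tested genes. Besides CR44165, the antisense RNAs with the smallest p within each sex were CR44107 and CR43259. CR44107 had log2 fold changes of -2.04 in males and -2.05 in females (limma adjusted p = 0.0611 and 0.0588), and CR43259 had -1.88 and -1.76 (0.0707 and 0.0715). Neither passed within a sex, although the libraries did not overlap in either.

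The antisense RNAs had wider gaps between replicates than their hosts by the median. They were also the less abundant, with a median level of 9.85 TPM against 45.3 TPM for the hosts. The mean gap between the 2 replicates of a group, as an absolute difference of log2(TPM + 1), had a median of 0.43 over the 112 antisense RNAs. It was 0.27 over the tested hosts and 0.29 over all 7479 tested genes with a mean of at least 5 TPM. A gap over 1, or a doubling, was found for 10 antisense RNAs (8.93%) and for 1.79% of those 7479 genes. All 10 had more than 50% of their exonic bases in opposite-strand exons, from 58.4% upward. The 34 antisense RNAs with up to 50% of their bases so placed had a median gap of 0.35 and none over 0.97. The 73 with a larger share, short of all, had a median of 0.44, and the 5 that lie wholly in opposite-strand exons had a median of 1.71. Counts of reads were not used here, and the parts of level and of read assignment in these gaps were not tested.

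**Figure D4:**
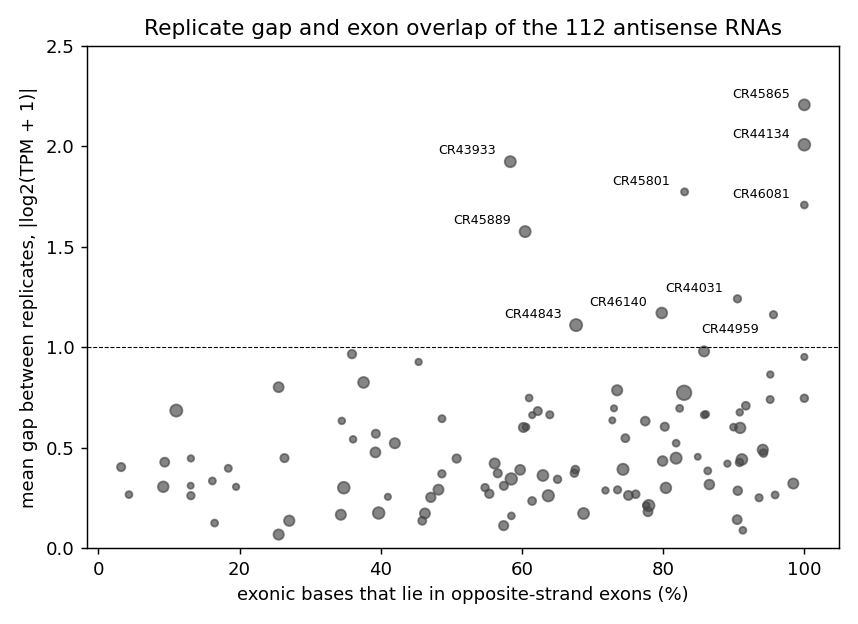
Mean gap between replicates in log2(TPM + 1) (vertical) against the share of exonic bases that lie in opposite-strand exons (horizontal), for 112 antisense RNAs. Larger points have a higher mean TPM. The 10 antisense RNAs over the dashed line at 1 are named, and all lie to the right of 58%.

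The largest gaps were in CR45865 (2.21) and CR44134 (2.01), described above. The following were chosen after their values were seen. asRNA:CR43933, antisense to Hr78, a nuclear receptor gene, and to Glg1, had 33.4 and 7.11 TPM in male fru+ libraries, 57.9 and 62.9 TPM in female fru+ libraries, 5.12 and 30.7 TPM in male fru- libraries, and 5.02 and 51.3 TPM in female fru- libraries. Over the same libraries Hr78 had 25.9 to 38.5 TPM and Glg1 11.0 to 18.0 TPM. asRNA:CR45801, antisense to Pdss2, a gene of coenzyme Q synthesis, had 10.8 and 18.8 TPM in male fru+ libraries, 0.818 and 1.19 TPM in female fru+ libraries, 1.10 and 10.7 TPM in male fru- libraries, and 0 and 11.1 TPM in female fru- libraries. Pdss2 was at 37.2 to 58.7 TPM. Both antisense RNAs jumped between replicates in male and in female fru- cells, and CR43933 did so in male fru+ cells too. The hosts did not. asRNA:CR44959, antisense to raptor, a subunit of the TORC1 kinase complex, and to Mipp2, was listed at 0 and at 0.383 TPM in male fru+ libraries and at 12.6 and 0 TPM in female fru+ libraries. Its fru- libraries were even, with 10.7 and 12.3 TPM in males and 12.4 and 10.5 TPM in females.

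Between the sexes, none of the 112 antisense RNAs passed in any comparison. CR45009, left out beforehand, is not covered by this. For male over female fru+ cells, 0 of 112 passed in limma and 8 had an unadjusted p under 0.05 (7.14%), where 0.089% of all genes passed and 4.24% had such a p. The antisense RNA with the smallest p was asRNA:CR44841, which overlaps the end of S6KL, a kinase gene, at 18804840 to 18806363 of chromosome X, minus strand. It had 27.8 and 26.0 TPM in male fru+ libraries, against 13.2 and 11.7 TPM in female fru+ libraries. In the other pool it had 26.1 and 24.4 TPM in male fru- libraries, against 18.0 and 14.0 TPM in female fru- libraries. Males were higher in both pools with no overlap, but the log2 fold change of 1.06 in fru+ cells did not pass (SE 0.24, limma adjusted p = 0.343). S6KL, with which CR44841 shares 46.3% of its exonic bases, had 54.4 and 63.3 TPM in male fru+ libraries, against 72.6 and 59.7 TPM in female fru+ libraries, with a log2 fold change of -0.16 (SE 0.19, limma adjusted p = 1). The next smallest p-values were those of asRNA:CR45867 and asRNA:CR45831, neither of which passed. CR45867, within bip1, had 2.93 and 1.99 TPM in male fru+ libraries, against 5.42 and 13.2 TPM in female fru+ libraries, with a log2 fold change of -1.48 (limma adjusted p = 0.820). CR45831, within Ppat-Dpck, a gene of coenzyme A synthesis, had 6.59 and 10.4 TPM in male fru+ libraries, against 4.83 and 1.11 TPM in female fru+ libraries, with a log2 fold change of 1.40 (limma adjusted p = 0.988).

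For male over female fru- cells, 0 of 112 passed in limma and 8 had an unadjusted p under 0.05 (7.14%), where 0.109% of all genes passed and 4.99% had such a p. asRNA:CR45198 is on chromosome 4, at the start of CG33978, from 175455 to 175874. It had 11.7 and 13.2 TPM in male fru- libraries, against 21.0 and 27.5 TPM in female fru- libraries, with a log2 fold change of -0.90 (SE 0.24, limma adjusted p = 0.637). In fru+ cells it had 23.4 and 23.8 TPM in males and 26.3 and 24.3 TPM in females. asRNA:CR43464, a spliced RNA of 5 exons within CG33543, had 7.66 and 7.78 TPM in male fru- libraries, against 3.49 and 3.77 TPM in female fru- libraries, with a log2 fold change of 0.91 (SE 0.30, limma adjusted p = 0.867). Its fru+ values were 7.96 and 6.79 TPM in males and 8.04 and 6.90 TPM in females. asRNA:CR46081, wholly in an exon of CG4338, had 9.52 and 19.4 TPM in male fru- libraries, against 0.667 and 0.154 TPM in female fru- libraries. Its fru+ values of 1.51 and 8.95 TPM in males and 10.6 and 0.133 TPM in females show no such order, and the log2 fold change of 3.40 in fru- cells did not pass (SE 0.97, limma adjusted p = 0.700). The hosts CG33978, CG33543 and CG4338 had log2 fold changes of 0.23, 0.05 and -0.08 in the same comparison.

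**Figure D5:**
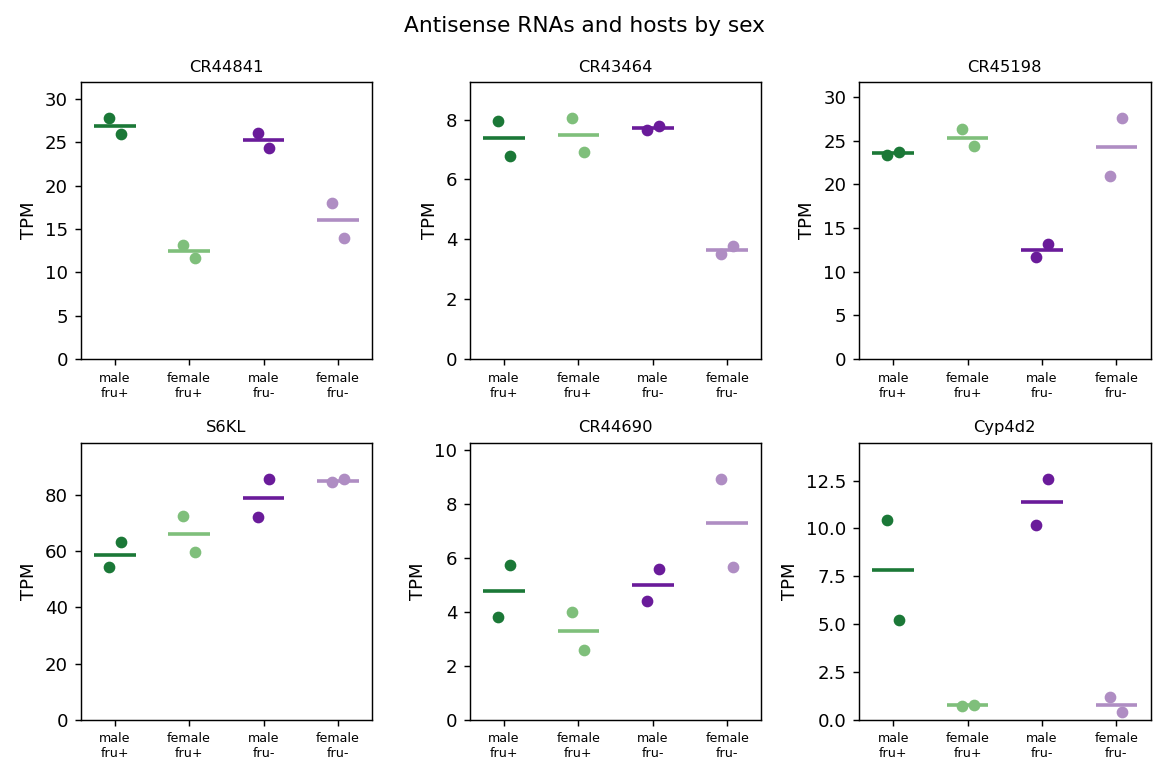
TPM by group (points, 1 for each library, with a bar at the mean of 2) for 4 antisense RNAs and 2 hosts. CR44841 is higher in males in both pools and its host S6KL is not, CR43464 and CR45198 have separate male and female values among the fru- libraries and did not pass the test, and Cyp4d2 is higher in males in both pools, where the antisense RNA that encloses it, CR44690, overlaps between the sexes.

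Averaged over fru status, 0 of 112 antisense RNAs passed between males and females in limma, with 10 at an unadjusted p under 0.05 (8.93%), where 0.227% of all genes passed and 6.71% had such a p. The 4 male and the 4 female libraries did not overlap for 4 of the 112 (3.57%) and for 3.23% of all tested genes. For the interaction of sex and fru status, 0 of 112 and 0 of all genes passed in limma, with 4 of 112 and 237 of all genes at an unadjusted p under 0.05. The only host that passed by sex was Cyp4d2, a cytochrome P450 gene enclosed by CR44690 on chromosome X. Cyp4d2 had 10.4 and 5.20 TPM in male fru+ libraries and 10.2 and 12.6 TPM in male fru- libraries, against 0.741 and 0.753 TPM in female fru+ libraries and 1.18 and 0.396 TPM in female fru- libraries. The log2 fold change of males over females was 2.54 averaged over fru status (SE 0.29, limma adjusted p = 0.00527), and the call was lost without male fru- replicate 2 (adjusted p = 0.0525) and with no limit on low values (0.113). Within fru- cells it was 2.82 (limma adjusted p = 0.0460, or 0.103 with the replicate block), and that call held only without male fru+ replicate 2 or female fru- replicate 1 (adjusted p up to 0.468). CR44690, with 50.7% of its exonic bases in exons of Cyp4d2, had 3.81 and 5.72 TPM in male fru+ libraries and 4.41 and 5.59 TPM in male fru- libraries, against 3.98 and 2.59 TPM in female fru+ libraries and 8.92 and 5.64 TPM in female fru- libraries. Its other hosts were Cyp4ae1, a further cytochrome P450 gene, and at 1 end the antisense RNA asRNA:CR45479. Both were also higher in each male than in each female library, though neither passed. Cyp4ae1 had 25.6 to 36.3 TPM in males and 14.3 to 18.0 TPM in females. CR45479 had 4.53 to 7.23 TPM in males and 0.624 to 2.18 TPM in females.

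By position, 13 of the 112 antisense RNAs were on chromosome X (11.6%), where 16.8% of the tested genes with a mean of at least 5 TPM were found. The median log2 fold change of males over females was -0.12 for these 13 in fru+ cells, with 6 of 13 above 0, and 0.18 in fru- cells, with 10 of 13 above 0. All tested genes on X had medians of 0.01 in fru+ and 0.08 in fru- cells, with 890 and 1016 of 1708 above 0. The 99 antisense RNAs elsewhere had medians of -0.05 and 0.09. Averaged over fru status the median was -0.01 for the 13 and 0.00 for the 99 elsewhere. For all tested genes that median was 0.07 on X and 0.03 elsewhere. On the small chromosome 4 there were 9 (8.04%), which is 9 of the 10 asRNA genes of that chromosome. Of the tested genes with a mean of at least 5 TPM, 1.16% were there, and of all 485 asRNA genes 2.06%. Most genes of chromosome 4 reached that level, 87 of its 105 reference genes, against 7479 of 17137 over all chromosomes. The means of the 9 antisense RNAs ran from 5.49 TPM for asRNA:CR43425 to 42.2 TPM for CR44030. CR43425 lies within unc-13, a gene of synaptic vesicle priming. By fru status or by sex averaged, 0 of the 9 passed. CR43425 had 23.6 TPM in male fru+ replicate 1 and 1.27 to 5.40 TPM in the other 7 libraries.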

How the data were processed

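The authors aligned trimmed reads to dm6 (HISAT2), left out duplicates and reads without a unique position, and estimated abundance in each library with StringTie 2.1.1. The library kit was unstranded. The deposited TPM, treated here as a signal because reference genes and assembled loci are scaled apart in the same column, was made by the authors per transcript length and library. The FPKM and coverage values in the deposited tables served only to give the depth. Only reference genes were used. The antisense RNAs, lists and named genes were chosen with earlier results of these data known. Named in full were those past the threshold, the 8 most abundant, the 3 with the smallest p in each comparison of 2 groups, those next to the limit of 5 TPM, and the hosts of those past the threshold or with the smallest p.

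Hosts were reference genes on the opposite strand with at least 1 base in common. Exons came from the Ensembl 115 annotation of BDGP 6.54, in which 110 of the 112 antisense RNAs have the same ends as in the tables. The fit used limma 3.58.1 (R 4.3.3), with a mean for each group, a variance trend and Benjamini-Hochberg adjustment over 10111 genes. Joins used Python 3.11.15, pandas 2.3.3 and numpy 2.4.6, and simulated data served to test the fit. With 2 libraries in a group, the 4 groups shared 1 estimate of spread for each gene, drawn toward the trend over all genes. The p-values rest on that estimate of the spread between replicate libraries, also in comparisons of 2 groups.

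Male and female cells of a replicate number were sorted in the same session, per the study's methods, so the number was also used as a block. The correlation over genes of the difference between replicates 1 and 2 was 0.204 for male with female fru+ libraries, 0.249 for male fru+ with male fru-, -0.04 for female fru+ with female fru- and 0.06 for male with female fru-. The alternatives were a pseudocount of 0.1 in place of 1, no limit on low values, a limit of 5 TPM, a fit to 4 libraries at a time, median-of-ratios scaling, the replicate block, no variance trend, and leaving out each library.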

Additional observations from a re-analysis of the deposited data

How the results depend on the processing

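The count of 9 antisense RNAs between fru+ and fru- cells averaged over the sexes was 3 to 8 with a library left out, 1 with no limit on low values and 4 with no variance trend. The cause was not tested. The other settings gave 6 to 9, the replicate block 7. CR44165 passed under all 14 alternatives in that comparison. Within males the count of 1 was 0 to 3 with a library left out, 0 with no limit on low values and 3 in a fit to only the 4 libraries. Within females the count of 1 was 0 to 1 with a library left out, and 0 with a pseudocount of 0.1, with no limit on low values and with only the 4 libraries. The counts of 0 became 0 to 2 for male over female fru+ cells and 0 to 1 for sex averaged and for the interaction with a library left out, and stayed 0 for male over female fru- cells. The call for sex averaged and for the interaction was that of CR44134, without male fru+ replicate 2, which leaves the group to the library in which it was listed at 0. Beside the calls given above, the replicate block changed no other among the antisense RNAs and hosts named. CG33543 between male and female fru- cells had a log2 fold change of -0.004 with median-of-ratios scaling and of -0.127 to 0.229 with a library left out. With a library left out, bip1 in fru+ cells and CG4338 in fru- cells had -0.415 to 0.137 and -0.405 to 0.240 between males and females. Taking the largest row of a gene in place of the sum left the 112 unchanged, since each has 1 row, and an overlap of at least 50% of the antisense RNA left 95 with a host. With no read counts, depth cannot be weighed for single values.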
